A study of Rattus norvegicus with 9 samples.

Results

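The spliceosome genes described here are the 134 of 18629 genes whose KEGG annotation in the authors' deposited table names the spliceosome, with Hspa8, the constitutive Hsp70, left out. They were sorted by the start of their symbols into Snrp (11 genes), Sf3 (9), Prpf (11), Hnrnp (6), Srsf (9) and 88 others. Messenger RNA had been sequenced from cardiomyocytes of Sprague-Dawley rat pups aged 1 to 2 days, in 9 libraries of 3 groups. One group received adenovirus with green fluorescent protein (GFP, the control), another adenovirus with wild-type Yap1 (Yap1 WT) and the last adenovirus with a short hairpin RNA against Yap1 (Yap1 shRNA). After 14 h in medium of 1% serum and 1 g/L glucose, all groups, the control included, were kept for 48 h in medium of 33 mM glucose and 100 nM insulin, meant to imitate diabetes in culture. No control hairpin is among the groups analysed here, and the species of the Yap1 sequence is not given in the sources used here. The label of each GFP library gives this treatment, while the protocol speaks of GFP controls with or without it. The GFP libraries were taken to be treated, as their own labels say.

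The spliceosome removes introns from precursor RNA in a cycle of assembly and disassembly. U1 binds the start of the intron and U2 the branch point, the tri-snRNP of U4, U6 and U5 joins them, and the Prp19 complex and a series of helicases then drive both catalytic steps. SR proteins and hnRNP proteins bind the RNA itself and influence which splice sites are used, and in heart muscle the choice of exons in long sarcomere transcripts depends on such factors. Yap1 is the transcriptional coactivator of the Hippo pathway and binds DNA through TEAD factors.

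Yap1 itself was at 197.1, 197.6 and 189.8 CPM (reads scaled to a common library size) in the GFP libraries, 559, 812 and 622 with Yap1 WT and 95.4, 96.0 and 95.3 with Yap1 shRNA, so each library matched its label. Libraries held 14868174 to 15368465 assigned reads in the GFP group, 10960046 to 11497108 with Yap1 WT and 6103220 to 6357398 with Yap1 shRNA, and the members took 1.05%, 1.27% and 1.71% of them on average. The 10 cardiomyocyte markers (Tnnt2, Actn2, Myh6, Myh7, Tnni3, Myl2, Ttn, Ryr2, Nppa and Pln) were all present in the control. All 10 were called lower in both comparisons with GFP, and their summed level was 30748.7 to 31646.4 CPM with GFP, 6266.4 to 9372.8 with Yap1 WT and 1974.0 to 2217.6 with Yap1 shRNA. With Yap1 shRNA, where 39.2% of all genes tested were called higher and 39.1% lower, 1 fibroblast marker was higher and 9 lower of 10, 1 smooth muscle marker higher and 7 lower of 8, 1 macrophage marker higher and 6 lower of 9, and 3 epicardial markers higher and 4 lower of 8. Of 8 endothelial markers 7 were higher and 1 lower, and of 6 markers of dividing cells none was higher and 4 were lower. With Yap1 WT (32% of all genes higher and 31.8% lower), the counts higher and lower were 3 and 6 for fibroblasts, 0 and 7 for smooth muscle, 3 and 1 for macrophages, 2 and 5 for epicardium, 4 and 1 for endothelium and 1 and 3 for dividing cells. Erythroid markers summed to at most 0.513 CPM in any library. The part of these shifts in the results below was not tested. In RNA from whole cultures, fewer cells of a type and less RNA per cell cannot be told apart. The labels do not say whether the 3 libraries of a group came from separate cultures, so p-values measure only the spread between these libraries.

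Of the 134 members, 133 passed the filter on low counts and were tested. Rbmxl2, a retrogene of the RNA-binding protein Rbmx, was left out with 0 reads in the GFP group, 2 with Yap1 WT and 5 with Yap1 shRNA. Levels between genes were compared per length, as TPM (transcripts scaled for length and depth). In the GFP group they ranged from 657 TPM for Snrpe, a protein of the Sm ring, down to 0.59 TPM for Hspa1b, an inducible Hsp70, among the tested members. Other high levels per length in the control were those of Snrpd2 at 338 TPM, the helicase Ddx5 at 294 TPM and Hnrnpa1 at 273 TPM. The spread between libraries was small for most members. The median coefficient of variation of a member was 4.05% in the GFP, 5.24% in the Yap1 WT and 4.6% in the Yap1 shRNA libraries, against 5.88%, 8.04% and 9.17% over all 13708 genes tested. The members' 90th percentiles were 10.1%, 12.4% and 12.1%. Their largest values were 28.6% (LOC687679, GFP), 87% (Wbp11l1, Yap1 WT) and 173% (RGD1563496, Yap1 shRNA). Members and other genes were not matched for level: 129 members and 11341 of all genes reached 5 CPM in 3 libraries.

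With Yap1 shRNA most spliceosome genes were higher than with GFP, across nearly every part of the machine. Of the 133, 98 were called higher, 14 were called lower and 21 had no call at an adjusted p below 0.05 (edgeR quasi-likelihood test), whereas 39.2% of all genes tested were called higher and 39.1% lower. The median log2 fold change of the members was 0.55, and that of all genes -0.01. The groups did not overlap for 115 members, where the background share is 80.2%. At a fold of at least 1.5, 63 members were called higher and 6 lower, against 28.8% and 28% of all genes. Summed over all 134, the level was 10874 ± 64.7 CPM (SD, n = 3) with GFP and 17449 ± 238 with Yap1 shRNA. Upper quartile scaling gave 23 lower calls, and TPM gave 8.

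With Yap1 WT, too, more spliceosome genes were called higher than lower, and few by a large fold. Here 69 of 133 members were called higher, 12 lower and 52 had no call, against 32% higher and 31.8% lower of all genes tested. The median log2 fold change was 0.20 for members and 0.00 for all genes, and 90 members had groups that did not overlap, beside 70.7% of all genes. Only 8 members were called higher and 1 lower at a fold of at least 1.5, against 16.4% of all genes in each direction. The 1 lower was RGD1563496, a near-copy of Wbp11 with few reads. The summed level was 12005 ± 322 CPM (SD, n = 3). The share of higher calls among the members' calls was 85.2%, and it was 93.9% with library size scaling and 96% on log2(TPM + 1). Over all genes it was 50.2%, 62.8% and 65.2%. Those scalings also moved the median log2 fold change of all genes to 0.14. Both comparisons share the 3 GFP libraries and are not independent of each other.

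The Yap1 groups were also set directly against each other. Yap1 WT was lower than Yap1 shRNA in 85 of 133 members and higher in 10, against 31.3% lower and 31.2% higher of all genes tested, with a median log2 difference of -0.33 for members and 0.04 for all genes. At a fold of at least 1.5, 47 were lower and 1 was higher, against 17.2% and 15.4%. That 1 member was RGD1563496, a near-copy of Wbp11 with few reads. The 10 that were higher with Yap1 WT were Snrpd2, Snrpe, Lsm7, Sf3b5, Bcas2, Pqbp1, Cwc15, Zmat2, Hnrnpa1 and RGD1563496. Leaving out replicate 1 of Yap1 shRNA gave 6 such calls, and upper quartile and library size scaling gave 18 and 17.

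**Figure D1:**
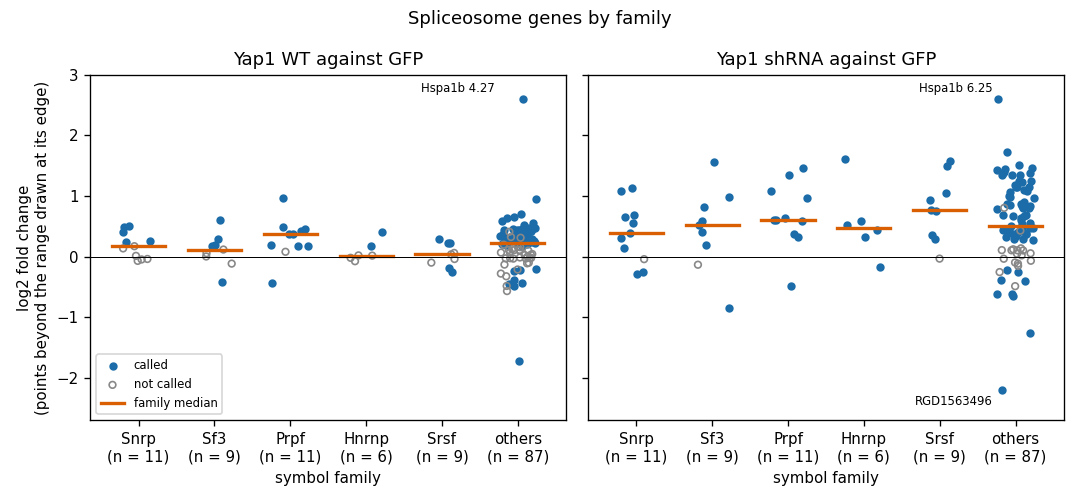
Log2 fold change of each tested spliceosome gene against GFP (vertical axis) by symbol family (horizontal axis), with Yap1 WT on the left and Yap1 shRNA on the right. Filled points passed the test, open points did not, points beyond the plotted range are drawn at its edge, and lines mark the family medians, which lie between 0.02 and 0.37 on the left and between 0.39 and 0.77 on the right.

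The U1 particle, which recognises the start of the intron, rose in 6 of 7 listed genes with Yap1 shRNA and in 5 of 7 with Yap1 WT. These are 85.7% and 71.4%, against 39.2% and 32% of all genes tested. In each comparison 14.3% were called lower, against 39.1% and 31.8%. Snrnp70 (chromosome 1, 101367470 to 101388153 in rn6), the U1-70K protein, was at 202, 195 and 199 CPM in the GFP libraries, 235, 235 and 251 with Yap1 WT and 390.1, 367 and 333 with Yap1 shRNA. The 3 groups did not overlap and Yap1 shRNA was highest. The rise was 1.83-fold with Yap1 shRNA (log2 fold change 0.87 with SE 0.06, adjusted p = 2.31e-08) and 1.21-fold with Yap1 WT (log2 fold change 0.27 with SE 0.06, adjusted p = 0.00146). Snrpa, the U1-A protein, was at 42.1, 40.1 and 44.6 CPM in the GFP libraries, 56.8, 55.7 and 54.8 with Yap1 WT and 85.8, 93.3 and 89.9 with Yap1 shRNA, again without overlap (log2 fold change 1.08 with SE 0.06, adjusted p = 2.68e-09 for Yap1 shRNA). Snrpc, the U1-C protein, was called higher with Yap1 shRNA at log2 0.30, and was at log2 0.14 with Yap1 WT, without a call. The U1-associated factor Rbm25 rose by 1.16 on the log2 scale with Yap1 shRNA. Prpf40b, a U1-associated factor as well, went the other way: it was at 25.2, 24.8 and 24.1 CPM in the GFP libraries, 16.9, 19.8 and 17.9 with Yap1 WT and 18.7, 15 and 19 with Yap1 shRNA. It was lower in both Yap1 groups than in every GFP library (log2 fold change -0.49 with SE 0.10, adjusted p = 0.000609 for Yap1 shRNA and log2 fold change -0.44 with SE 0.09, adjusted p = 0.000925 for Yap1 WT), and the fall with Yap1 WT had an adjusted p of 0.0683 on log2(TPM + 1).

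The Sm and LSm rings, which encircle the small nuclear RNAs, had calls in both directions. With Yap1 shRNA 7 of 14 were higher and 5 lower, with a median log2 fold change of 0.13, and with Yap1 WT 4 were higher and 1 lower. The shares with Yap1 shRNA were 50% and 35.7%, against 39.2% and 39.1% of all genes tested. With Yap1 WT the higher share of 28.6% was near the 32% of all genes, and the lower share was 7.14%, against 31.8%. Snrpb, which makes the SmB protein (chromosome 3, 122694494 to 122703734 in rn6), was at 95.8, 105 and 105 CPM in the GFP libraries, 113, 133 and 118 with Yap1 WT and 219.7, 230.1 and 219.8 with Yap1 shRNA. The 3 groups did not overlap. Its levels with Yap1 shRNA were 2.19-fold those of GFP (log2 fold change 1.13 with SE 0.07, adjusted p = 3.57e-09), and those with Yap1 WT were 1.2-fold (log2 fold change 0.26 with SE 0.07, adjusted p = 0.00368). Snrpf, another Sm protein, was at 58.1, 57.6 and 60.6 CPM in the GFP libraries, 80.6, 82.7 and 83.9 with Yap1 WT and 74.2, 80.0 and 76.2 with Yap1 shRNA, higher in both Yap1 groups than in any GFP library (log2 fold change 0.49 with SE 0.05, adjusted p = 3.87e-06 for Yap1 WT). Snrpe (chromosome 13, 50252707 to 50258951 in rn6) lay on the opposite side at 81.9, 88.9 and 87.9 CPM in the GFP libraries, 81.3, 82.1 and 88.6 with Yap1 WT and 74.3, 69.3 and 73.9 with Yap1 shRNA. Its Yap1 shRNA libraries were below all others (log2 fold change -0.25 with SE 0.06, adjusted p = 0.00211), and the Yap1 WT libraries overlapped those of GFP. Snrpd2 was called lower with Yap1 shRNA as well (log2 fold change -0.29 with SE 0.08, adjusted p = 0.00528), and the LSm proteins Lsm5, Lsm7 and Lsm8 fell by 0.38, 0.62 and 0.23 in log2 units. On log2(TPM + 1) the falls of Snrpe and Snrpd2 lost their calls, at -0.05 (adjusted p = 0.461) and -0.08 (adjusted p = 0.268) from limma.

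The U2 particle and the factors that find the branch point and the end of the intron rose in 18 of 23 genes with Yap1 shRNA and in 12 of 23 with Yap1 WT. These are 78.3% and 52.2%, against 39.2% and 32% of all genes tested. The lower shares were 8.7% and 13%, against 39.1% and 31.8%. Sf3b4, a subunit of SF3B that contacts the RNA near the branch point (chromosome 2, 198312428 to 198317390 in rn6), was at 56.1, 59.7 and 67 CPM in the GFP libraries, 87.9, 101 and 87.3 with Yap1 WT and 174, 185 and 184 with Yap1 shRNA. The 3 groups were fully separate, and Yap1 shRNA stood 2.97-fold above GFP (log2 fold change 1.57 with SE 0.08, adjusted p = 7.28e-10) and Yap1 WT 1.51-fold (log2 fold change 0.60 with SE 0.08, adjusted p = 1.67e-05). Sf3b1, the large scaffold of SF3B, was at 263, 265 and 249 CPM in the GFP libraries, 279, 285 and 279 with Yap1 WT and 486, 433 and 449 with Yap1 shRNA, with a rise for Yap1 shRNA (log2 fold change 0.82 with SE 0.05, adjusted p = 1.52e-08) and none called for Yap1 WT (log2 fold change 0.12 with SE 0.05, adjusted p = 0.0769). That comparison was called higher with RLE scaling (0.14, adjusted p = 0.0414 in edgeR), by DESeq2 (0.14, adjusted p = 0.0354), in the fit of 6 libraries alone (0.13, adjusted p = 0.042), with library size scaling (0.25, adjusted p = 0.0016) and on log2(TPM + 1) (0.28, adjusted p = 0.00421 in limma). Sf3a1, a subunit of SF3A, was at 83.6, 80.0 and 83 CPM in the GFP libraries, 91.8, 95.8 and 94.6 with Yap1 WT and 169, 163 and 155 with Yap1 shRNA, and Sf3a3 of the same complex rose by 0.52 with Yap1 shRNA and 0.29 with Yap1 WT in log2 units. Sf3b5, the small SF3B subunit (chromosome 1, 7101715 to 7102427 in rn6), was at 85.5, 91.1 and 90.9 CPM in the GFP libraries, 64.8, 69.4 and 65.9 with Yap1 WT and 51.3, 51.3 and 46.1 with Yap1 shRNA. Its groups did not overlap either, in the reverse order, and it fell 1.8-fold with Yap1 shRNA (log2 fold change -0.85 with SE 0.06, adjusted p = 4.39e-08) and 1.34-fold with Yap1 WT (log2 fold change -0.42 with SE 0.06, adjusted p = 3.57e-05). Snrpa1, a protein of the U2 particle, rose by 0.69 with Yap1 shRNA and 0.51 with Yap1 WT. Sf3b6, another SF3B subunit, had no call in either comparison with GFP.

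U2af1 and U2af2, the pair that binds the end of the intron, both rose with each virus. U2af1 was at 50.9, 52.2 and 50.9 CPM in the GFP libraries, 59.5, 79.6 and 71.4 with Yap1 WT and 130.2, 127 and 133 with Yap1 shRNA, a rise of 2.54-fold with Yap1 shRNA (log2 fold change 1.34 with SE 0.09, adjusted p = 9e-09). U2af2 was at 141, 139 and 152 CPM in the GFP libraries, 178, 183 and 179 with Yap1 WT and 319.9, 307 and 334 with Yap1 shRNA, a rise of 2.22-fold (log2 fold change 1.15 with SE 0.05, adjusted p = 4.95e-10). With Yap1 WT they rose by 0.45 and 0.32 on the log2 scale, and for both genes no library of 1 group overlapped those of another. U2af1l4, a relative of U2af1, was at 26.2, 28.8 and 28.5 CPM in the GFP libraries, 18.5, 21.4 and 21.1 with Yap1 WT and 17.9, 17.9 and 18.5 with Yap1 shRNA, below GFP in all 6 libraries of the Yap1 groups (log2 fold change -0.62 with SE 0.09, adjusted p = 2.11e-05 for Yap1 shRNA). Dhx15, the helicase that takes apart the spent spliceosome and is placed with U2 here, was called in opposite directions. It was at 167, 166 and 164 CPM in the GFP libraries, 147, 141 and 140.2 with Yap1 WT and 232, 217 and 228 with Yap1 shRNA. The Yap1 WT libraries were below and the Yap1 shRNA libraries above every GFP library (log2 fold change -0.21 with SE 0.05, adjusted p = 0.00177 for Yap1 WT, and log2 fold change 0.44 with SE 0.05, adjusted p = 1.98e-06 for Yap1 shRNA). The fall with Yap1 WT had no call with library size scaling (-0.08, adjusted p = 0.18 in edgeR) or on log2(TPM + 1) (-0.05, adjusted p = 0.487 in limma).

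**Figure D2:**
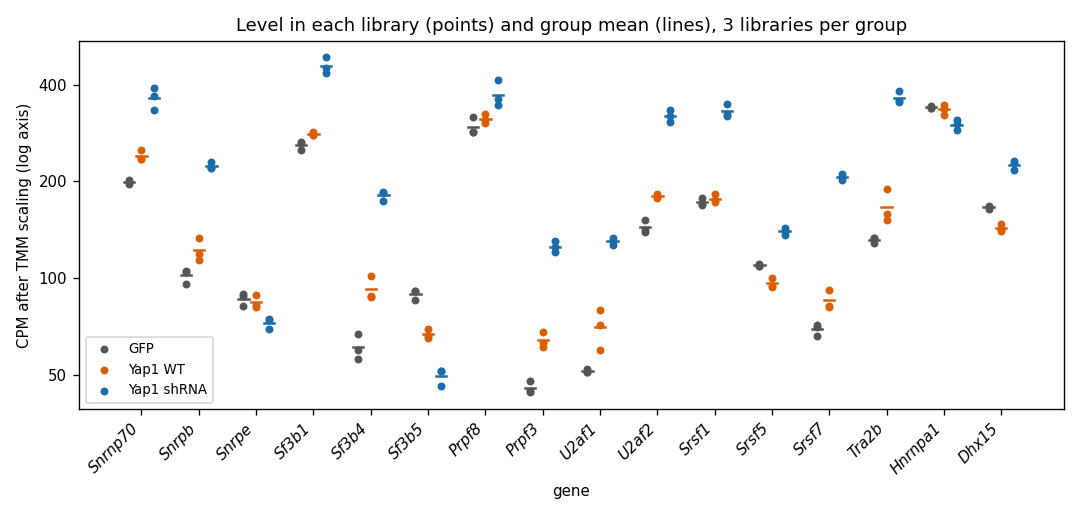
Level of 16 spliceosome genes in CPM after TMM scaling (log axis), with 1 point per library and a line at the mean of each group. Yap1 shRNA libraries lie above all GFP libraries for 13 of the genes and below them for Snrpe, Sf3b5 and Hnrnpa1, while Yap1 WT libraries lie below GFP for Sf3b5, Srsf5 and Dhx15.

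In the tri-snRNP, which brings in the catalytic core, 15 of 17 genes were called higher and 1 lower with Yap1 shRNA, and 12 higher and 1 lower with Yap1 WT. The shares with Yap1 shRNA were 88.2% and 5.88%, against 39.2% and 39.1% of all genes tested. With Yap1 WT they were 70.6% and 5.88%, against 32% and 31.8%. Prpf3, a U4/U6 protein (chromosome 2, 197947010 to 197971464 in rn6), was at 44.5, 44 and 47.8 CPM in the GFP libraries, 62.5, 68.1 and 61 with Yap1 WT and 130.4, 125 and 120.1 with Yap1 shRNA. Each group was separate from the next, and Yap1 shRNA was 2.75-fold above GFP (log2 fold change 1.46 with SE 0.06, adjusted p = 2.61e-10). Prpf38b, a tri-snRNP factor, was at 82.8, 78.1 and 76.9 CPM in the GFP libraries, 99.3, 101 and 108 with Yap1 WT and 205, 198 and 204 with Yap1 shRNA, a similar pattern (log2 fold change 1.35 with SE 0.05, adjusted p = 1.25e-10). Prpf31, another U4/U6 protein, was at 22.8, 21.7 and 23 CPM in the GFP libraries, 43.6, 45 and 43.3 with Yap1 WT and 42.2, 41.7 and 47.8 with Yap1 shRNA. Both Yap1 groups stood clear of GFP and overlapped each other, with log2 fold changes of 0.97 for Yap1 WT and 0.96 for Yap1 shRNA, and the difference between them was 0.00 with an SE of 0.07 (adjusted p = 0.981 in edgeR). Prpf8, the scaffold at the centre of U5, was at 318, 284 and 285 CPM in the GFP libraries, 324, 304 and 310.0 with Yap1 WT and 412, 361 and 344 with Yap1 shRNA, called higher with Yap1 shRNA (log2 fold change 0.33 with SE 0.07, adjusted p = 0.00077) and not with Yap1 WT (log2 fold change 0.08 with SE 0.07, adjusted p = 0.337). With library size scaling Prpf8 was called higher with Yap1 WT as well (0.21, adjusted p = 0.018 in edgeR), as it was on log2(TPM + 1) (0.24, adjusted p = 0.0369 in limma). Snrnp200, the U5 helicase that unwinds U4 from U6, rose by 0.91 and 0.55 in log2 units with Yap1 shRNA and Yap1 WT. Snrnp27 was the exception on the lower side, at 23.2, 25.4 and 26.9 CPM in the GFP libraries, 17.7, 18.9 and 17.3 with Yap1 WT and 18.2, 19.1 and 19.6 with Yap1 shRNA (log2 fold change -0.49 with SE 0.08, adjusted p = 0.000158 for Yap1 WT and log2 fold change -0.41 with SE 0.09, adjusted p = 0.000813 for Yap1 shRNA). By symbol, the Prpf family had 10 of 11 called higher with Yap1 shRNA and 9 with Yap1 WT, Prpf40b being called lower in each. The higher shares were 90.9% and 81.8%, against 39.2% and 32% of all genes tested.

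Of the Prp19 complex and its partners, which steady the catalytic centre, 13 of 18 were higher and 2 lower with Yap1 shRNA, and 10 higher and 1 lower with Yap1 WT. The shares with Yap1 shRNA were 72.2% and 11.1%, against 39.2% and 39.1% of all genes tested. With Yap1 WT they were 55.6% and 5.56%, against 32% and 31.8%. Prpf19, the ubiquitin ligase of the complex, was at 123, 135 and 143 CPM in the GFP libraries, 149.7, 149 and 152 with Yap1 WT and 169.7, 177 and 171 with Yap1 shRNA. Both Yap1 groups were above GFP, by 0.37 (Yap1 shRNA, adjusted p = 6.07e-05 in edgeR) and 0.17 (Yap1 WT, adjusted p = 0.0198) on the log2 scale. The Yap1 WT call of Prpf19 was lost without replicate 1 of GFP (0.11, adjusted p = 0.1) and without replicate 1 or 3 of Yap1 WT (0.15 and 0.16, adjusted p = 0.0521 and 0.0648). Its partners Plrg1 and Cdc5l rose by 1.43 and 0.79 with Yap1 shRNA. Bcas2, a core subunit of the same complex, was at 37, 37.6 and 35.1 CPM in the GFP libraries, 28.5, 33.3 and 31.4 with Yap1 WT and 22.1, 22.4 and 25.3 with Yap1 shRNA. It was lower in every Yap1 shRNA library than in any other (log2 fold change -0.65 with SE 0.08, adjusted p = 9.97e-06), and its smaller fall with Yap1 WT (log2 fold change -0.24 with SE 0.08, adjusted p = 0.0141) was not called by DESeq2 (-0.22, adjusted p = 0.0614), without replicate 2 of GFP (-0.22, adjusted p = 0.0537), with library size scaling (-0.10) or on log2(TPM + 1) (-0.07).

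The helicases and factors of the catalytic steps had 8 of 9 genes called higher in each comparison with GFP and none called lower. That is 88.9%, against 39.2% of all genes tested with Yap1 shRNA and 32% with Yap1 WT. Of all genes, 39.1% and 31.8% were called lower. In Yap1 shRNA the helicases Dhx16 and Dhx38 rose by 0.42 and 1.22 on the log2 scale. The second-step factor Slu7 rose by 1.4 and Dhx8, which releases the finished messenger RNA, by 1.35. The same genes rose by 0.23, 0.63, 0.65 and 0.43 with Yap1 WT. Ddx5, an abundant helicase with roles beyond splicing, was at 568, 595 and 572 CPM in the GFP libraries, 569, 580.2 and 584 with Yap1 WT and 759, 748 and 795 with Yap1 shRNA. Only the Yap1 shRNA libraries stood apart (log2 fold change 0.41 with SE 0.05, adjusted p = 5.24e-06). With Yap1 WT its log2 fold change was -0.003 without a call, and 0.13 with library size scaling and 0.18 on log2(TPM + 1), both called higher.

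Among the proteins laid on the spliced RNA (exon junction complex, TREX and cap binding), 9 of 12 were higher with Yap1 shRNA, 6 were higher with Yap1 WT and none was called lower. The higher shares were 75% and 50%, against 39.2% and 32% of all genes tested, of which 39.1% and 31.8% were called lower. The exon junction helicase Eif4a3 and the export helicase Ddx39b rose by 1.19 and 1.38 on the log2 scale with Yap1 shRNA. Magoh, a core exon junction protein, was at 46.6, 48.2 and 43.8 CPM in the GFP libraries, 52.1, 55.3 and 54.2 with Yap1 WT and 55, 73.9 and 68.9 with Yap1 shRNA, with replicate 1 of Yap1 shRNA the lowest of its group (log2 fold change 0.51 with SE 0.09, adjusted p = 0.000182). Its rise with Yap1 WT (log2 fold change 0.22 with SE 0.09, adjusted p = 0.0411) lost its call without any 1 of the 6 libraries compared, with log2 values of 0.18 to 0.25. Magohb, a near-copy of Magoh, was at 6.24, 6.5 and 7.54 CPM in the GFP libraries, 7.2, 7.18 and 7.52 with Yap1 WT and 5.59, 8.27 and 6.76 with Yap1 shRNA, with overlapping groups and no call.

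**Figure D3:**
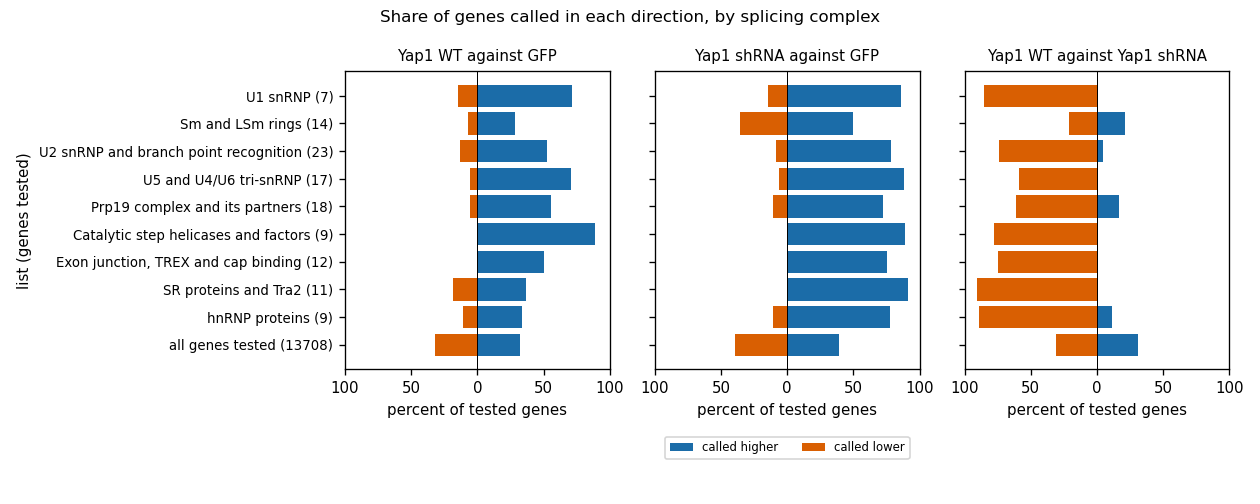
Percent of tested genes called higher (right of 0) and lower (left of 0) in each listed complex and in all genes, for the 3 comparisons, with the number of genes tested in brackets. In Yap1 shRNA against GFP the higher share is 50% in the Sm and LSm rings and 72.2% to 90.9% in the other complexes drawn. In Yap1 WT against Yap1 shRNA the rings have 21.4% lower and 21.4% higher. The lower share is 58.8% to 90.9% in the other complexes drawn.

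Among the SR proteins the Yap1 groups differed in most members: 10 of 11 SR and Tra2 genes were higher with Yap1 shRNA than with GFP, and the same number were lower with Yap1 WT than with Yap1 shRNA, while Yap1 WT against GFP gave 4 higher and 2 lower. Both counts of 10 are shares of 90.9%. Of all genes tested, 39.2% were called higher with Yap1 shRNA and 31.3% lower with Yap1 WT than with Yap1 shRNA. The shares in Yap1 WT against GFP were 36.4% higher, near the 32% of all genes tested, and 18.2% lower, against 31.8%. SR proteins bind exon enhancers and recruit U1 and U2. Srsf7 (chromosome 6, 2879309 to 2886505 in rn6) was at 71.4, 70.6 and 65.9 CPM in the GFP libraries, 81.9, 91.9 and 81.3 with Yap1 WT and 206, 202 and 211 with Yap1 shRNA. Yap1 shRNA stood 2.98-fold above GFP (log2 fold change 1.57 with SE 0.06, adjusted p = 1e-10), and Yap1 WT 1.23-fold (log2 fold change 0.30 with SE 0.06, adjusted p = 0.000852). Srsf4 was at 46.2, 46.6 and 48.2 CPM in the GFP libraries, 55.3, 57.5 and 52.9 with Yap1 WT and 129.9, 134 and 134 with Yap1 shRNA, with the same order (log2 fold change 1.5 with SE 0.05, adjusted p = 6.23e-11). Srsf1, the classical SR protein, was at 169, 177 and 170.4 CPM in the GFP libraries, 172, 175 and 183 with Yap1 WT and 319.8, 323 and 347 with Yap1 shRNA, where Yap1 WT overlapped GFP and Yap1 shRNA was above both, at 1.92-fold the GFP level (log2 fold change 0.94 with SE 0.05, adjusted p = 2.22e-09). With Yap1 WT, Srsf1 was called higher only with library size scaling (0.17, adjusted p = 0.00968 in edgeR) and on TPM (0.19 on log2(TPM + 1), adjusted p = 0.00695 in limma). Srsf3 and Srsf2 rose likewise by 0.77 and 0.76 in log2 units with Yap1 shRNA, and with Yap1 WT they were at -0.04 and -0.10 without a call. On log2(TPM + 1), Srsf2 was called higher with Yap1 WT (0.15, adjusted p = 0.0152 in limma), and without a count filter it was called lower (-0.14, adjusted p = 0.027 in edgeR). Tra2b, an SR-like activator of exon inclusion, was at 133, 128 and 133 CPM in the GFP libraries, 152, 189 and 158 with Yap1 WT and 354, 356 and 381 with Yap1 shRNA (log2 fold change 1.47 with SE 0.07, adjusted p = 1.04e-09).

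Srsf5 was the other member called in opposite directions against GFP. It was at 109, 109 and 111 CPM in the GFP libraries, 94, 94.5 and 99.8 with Yap1 WT and 136, 139.9 and 143 with Yap1 shRNA. All Yap1 WT libraries were below and all Yap1 shRNA libraries above the GFP libraries (log2 fold change -0.19 with SE 0.05, adjusted p = 0.00438 for Yap1 WT, and log2 fold change 0.35 with SE 0.05, adjusted p = 2.33e-05 for Yap1 shRNA). The difference between the Yap1 groups was -0.54 on the log2 scale (adjusted p = 1.08e-06 in edgeR), and the fall with Yap1 WT was not called with library size scaling (-0.05, adjusted p = 0.353) or on log2(TPM + 1) (-0.01, adjusted p = 0.852). Srsf9 was at 22.5, 25.7 and 20.9 CPM in the GFP libraries, 19.9, 18.9 and 19.5 with Yap1 WT and 20.6, 24 and 23 with Yap1 shRNA, a lower call for Yap1 WT (log2 fold change -0.25 with SE 0.09, adjusted p = 0.0298) that DESeq2 did not make (-0.23, adjusted p = 0.105) and that was lost with library size scaling (-0.11), on log2(TPM + 1) (-0.07) and without replicate 2 of GFP or without replicate 2 or 3 of Yap1 WT. With Yap1 shRNA it had no call at -0.03, and on log2(TPM + 1) it was called higher (0.18, adjusted p = 0.049).

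The hnRNP proteins, which often oppose SR proteins at exons, had calls mainly with Yap1 shRNA. Of the 6 Hnrnp genes, 5 were higher and 1 lower with Yap1 shRNA, and 2 were higher with Yap1 WT. The higher share with Yap1 WT, 33.3%, was near the 32% of all genes tested, and with Yap1 shRNA it was 83.3%, against 39.2%. Hnrnpm was at 139, 150.3 and 143 CPM in the GFP libraries, 159, 170.2 and 161 with Yap1 WT and 216, 211 and 222 with Yap1 shRNA, separate in all 3 groups (log2 fold change 0.58 with SE 0.05, adjusted p = 2.53e-07). Hnrnpu, Hnrnpk and Hnrnpa3 rose by 0.43, 0.52 and 0.32 on the log2 scale with Yap1 shRNA and had no call with Yap1 WT. Hnrnpa1, a repressor of exon inclusion (chromosome 7, 144865302 to 144871591 in rn6), was at 338, 337 and 343 CPM in the GFP libraries, 346, 336 and 323 with Yap1 WT and 289, 301 and 310.3 with Yap1 shRNA. The Yap1 shRNA libraries were the lowest, 1.13-fold below GFP (log2 fold change -0.18 with SE 0.05, adjusted p = 0.00544). That direction turned on log2(TPM + 1), to 0.03 with an adjusted p of 0.502 (limma). Pcbp1, an hnRNP-like protein that binds C-rich RNA, rose by 0.84 with Yap1 shRNA.

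The largest rise of any member was that of Hspa1b, an inducible Hsp70 that the annotation counts with the spliceosome. It was at 0.971, 1.35 and 0.951 CPM in the GFP libraries, 17.5, 32.5 and 13.8 with Yap1 WT and 64.1, 95.1 and 92.9 with Yap1 shRNA. Every Yap1 library was above every GFP library, and replicate 2 was the highest with Yap1 WT and replicate 1 the lowest with Yap1 shRNA. The log2 fold change was 4.27 for Yap1 WT (SE 0.39, adjusted p = 8.91e-07) and 6.25 for Yap1 shRNA (SE 0.35, adjusted p = 2.67e-09) in edgeR, from 48 reads in the GFP group, 753 with Yap1 WT and 1542 with Yap1 shRNA. In the authors' deposited table its log2 fold changes were 4.35 and 6.32. On log2(TPM + 1) the values were 3.06 and 5.07, a scale that understates the change of low genes. Its coordinates (chromosome 20, 4877638 to 4880112, minus strand, rn6) overlap those of Hspa1l on the plus strand, and the kit's strand is not stated, so reads in the overlap cannot be told apart. Hspa2, a further Hsp70, was at 18.6, 16.8 and 18.7 CPM in the GFP libraries, 32.9, 36.7 and 35.1 with Yap1 WT and 31.8, 31.5 and 30.8 with Yap1 shRNA, higher in both Yap1 groups (log2 fold change 0.95 with SE 0.07, adjusted p = 1.59e-07 for Yap1 WT, and log2 fold change 0.80 with SE 0.08, adjusted p = 6.92e-07 for Yap1 shRNA).

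Several members are near-copies of another gene, and the division of reads between such copies is uncertain. Wbp11, a splicing factor that binds Pqbp1, was at 36.9, 30.9 and 27.5 CPM in the GFP libraries, 75.9, 26.9 and 15 with Yap1 WT and 153, 76.1 and 84.2 with Yap1 shRNA. Its copy Wbp11l1 was at 30.0, 33.2 and 36.4 CPM in the GFP libraries, 0, 59.2 and 66 with Yap1 WT and 0, 90.8 and 84.1 with Yap1 shRNA, with 0 in the libraries where Wbp11 was highest. A further copy, RGD1563496, held 87 reads in the GFP group, 21 with Yap1 WT and 1 with Yap1 shRNA. Summed, the 3 genes were at 68.9, 66 and 66.1 CPM in the GFP libraries, 77, 86.5 and 81.3 with Yap1 WT and 153, 167 and 168 with Yap1 shRNA, without overlap between groups (log2 fold change 1.28 with SE 0.06, adjusted p = 5.09e-10 for Yap1 shRNA and log2 fold change 0.28 with SE 0.06, adjusted p = 0.00111 for Yap1 WT). Hnrnpc was at 45.4, 49.7 and 51.8 CPM in the GFP libraries, 56.9, 85.5 and 53.1 with Yap1 WT and 131, 149.6 and 167 with Yap1 shRNA, and its Yap1 WT call was lost without replicate 2 of Yap1 WT (0.17, adjusted p = 0.155) and without replicate 1 or 2 of GFP. Summed with its copy LOC100911576 it was at 201, 191 and 203 CPM in the GFP libraries, 235, 264 and 245 with Yap1 WT and 443, 446 and 493 with Yap1 shRNA (log2 fold change 0.32 with SE 0.06, adjusted p = 0.000507 for Yap1 WT and log2 fold change 1.22 with SE 0.06, adjusted p = 9.33e-10 for Yap1 shRNA). Rbmx, an hnRNP-like protein, was called lower with Yap1 WT on its own (-0.39). Summed with Rbmxl1 it was at log2 -0.01 (adjusted p = 0.924) with Yap1 WT, and was called higher with Yap1 shRNA at 0.41. Ncbp2, the small subunit of the cap-binding complex, had no call alone and fell by 0.31 on the log2 scale in both comparisons once summed with LOC108348149. Snrpf, Rbm25 and Magoh, which also have near-copies, stayed called higher in both comparisons when summed, with log2 values of 0.32, 1.25 and 0.46 for Yap1 shRNA. After all 10 such sums, which were chosen after the data were seen, 94 of 122 members were called higher and 13 lower with Yap1 shRNA, and 66 and 11 with Yap1 WT.

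**Figure D4:**
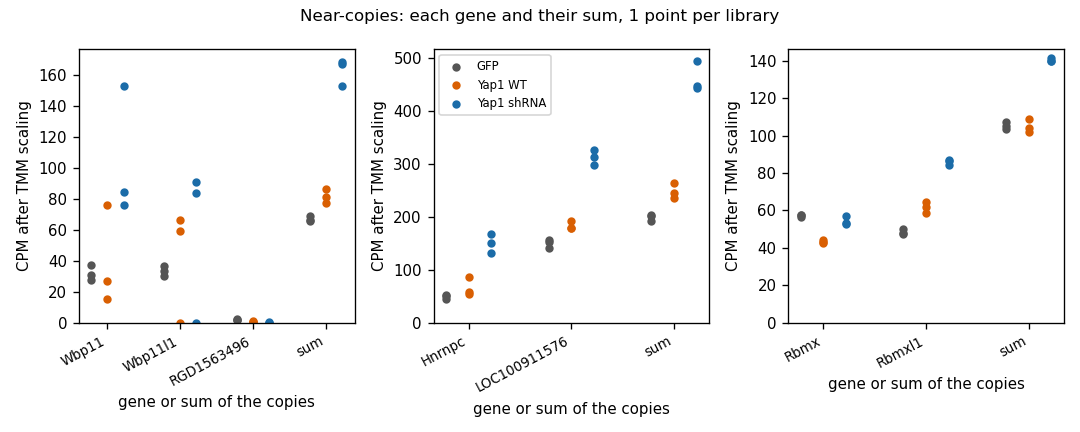
CPM after TMM scaling of Wbp11, Hnrnpc and Rbmx, of their near-copies and of the sum of each set, with 1 point per library coloured by group. Single copies of Wbp11 scatter between 0 and 153 CPM, whereas their sum lies at 66.0 to 68.9 with GFP, 77.0 to 86.5 with Yap1 WT and 153 to 168 with Yap1 shRNA.

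Member transcripts differed in length, and so did their shifts. Tested genes were divided into 3 equal groups by relative length, taken from the ratio of deposited count to TPM. With Yap1 shRNA the median log2 fold change of the members was 0.40 in the shortest (64 members), 0.72 in the middle (46) and 0.82 in the longest group (23), and that of all genes was -0.21, 0.07 and 0.10. Of the 14 lower calls, 12 lay in the shortest group. They are 18.8% of the 64 members there, whereas 45.4% of all genes in that group were called lower. Spearman's rho of length with this fold change was 0.35 across the 133 members and 0.11 across 13661 genes, values that share the same libraries and are given as a description across genes. With Yap1 WT the members' medians were 0.17, 0.21 and 0.20.

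Related genes outside the annotation were read beside the members, against the 39.2% of all genes called higher and 39.1% called lower with Yap1 shRNA. Of 10 genes of nonsense-mediated decay, which removes faultily spliced messages, 7 were higher and none lower with Yap1 shRNA. Smg9, a partner of the kinase of this pathway, rose from 23.5 ± 0.388 CPM (SD, n = 3) to 70.8 ± 7.57 (log2 fold change 1.59 with SE 0.09, adjusted p = 1.77e-09). Smg8 of the same pathway rose by 1.32 in log2 units. The minor spliceosome of U12 introns had 7 of 12 higher and 3 lower, led by Armc7 (log2 fold change 1.8 with SE 0.10, adjusted p = 2.38e-09) and Rnpc3 (log2 fold change 1.36 with SE 0.08, adjusted p = 5.34e-09). The SMN complex and other assembly factors, which load Sm rings, had 6 of 14 higher and 5 lower, shares of 42.9% and 35.7% that are near those of all genes. Among them Strap, a partner of SMN, rose by 1.48 and Tgs1, which modifies the cap of small nuclear RNAs, by 1.21 in log2 units. Kinases and phosphatases of SR proteins had 6 of 10 higher and 4 lower, the lower share of 40% being near that of all genes. Srpk1, the general SR protein kinase, was at 54.6 ± 2.43 CPM with GFP and 130.0 ± 5.85 with Yap1 shRNA (log2 fold change 1.25 with SE 0.06, adjusted p = 6.85e-10), while Srpk3, the muscle form, went from 25.9 ± 2.92 to 3.68 ± 0.913 CPM (log2 fold change -2.81 with SE 0.20, adjusted p = 2.21e-08).

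Other housekeeping annotations are set beside the members without a test between the lists. With Yap1 shRNA, 74.6% of 71 tested genes of ribosome biogenesis, 76.7% of 43 proteasome genes and 65.8% of 73 genes of messenger RNA surveillance were called higher, next to 73.7% of the 133 spliceosome genes and 39.2% of all genes tested. With Yap1 WT the shares were 76.1%, 72.1%, 46.6%, 51.9% and 32% in the same order. The summed CPM of each spliceosome family in relation to GFP is shown beside that of the cardiomyocyte markers.

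**Figure D5:**
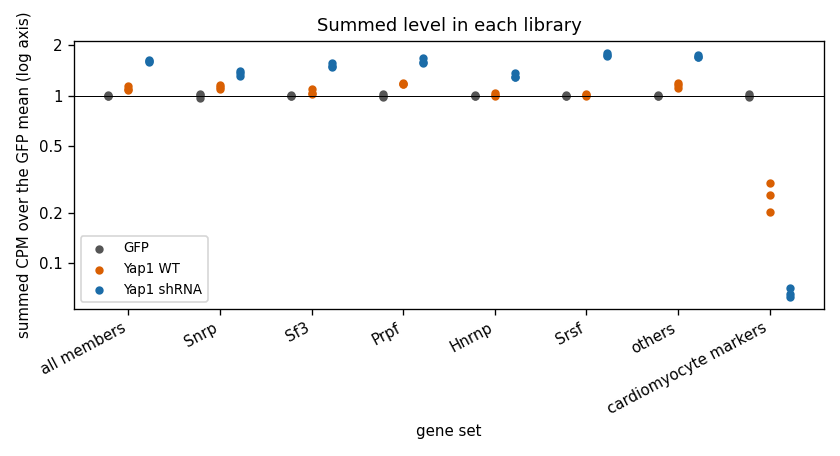
Summed CPM of the spliceosome genes, of each symbol family and of the 10 cardiomyocyte markers in each library, divided by the mean of the GFP libraries (log axis), 1 point per library. All members together average 1.1 times GFP with Yap1 WT and 1.6 times with Yap1 shRNA, and the markers 0.253 and 0.0668 times.

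Promoters were read for letters known to bind common activators. RefSeq promoters of the rat build GRCr8 (250 bases before to 50 after the start) were found for 116 of the 134 members, 121 entries in all. The ETS letters CCGGAAG, searched on both strands like all motifs here, were in 33.1% of member entries, against 16.6% of those of all tested genes and 8.75% of all promoters in the table. The NF-Y letters CCAAT were in 46.3%, 37.2% and 37.5%. By family they ran from 1 of 8 Sf3 promoters (12.5%) to all 6 Hnrnp promoters, which held no ETS letters. GGAATG, which TEAD factors bind, was in 10.7%, 11.3% and 14.2%. The NRF1 core of 10 bases was in 5.79%, 1.76% and 0.852%, and the heat shock element TTCNNGAA was in 10.7%, 7% and 8.77%. With Yap1 shRNA the median log2 fold change was 0.59 for the 39 members with the ETS letters and 0.49 for the 77 without, and over all genes tested it was 0.08 with and -0.04 without. A match is a description of letters, not of binding.

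Stretches of 120 bases before the start are shown for Sm and U2 genes that hold ETS letters and differ in their response: Snrpb rose with Yap1 shRNA, Snrpe fell, and Snrpb2, the U2B'' protein, had no call (-0.04 on the log2 scale, adjusted p = 0.582 in edgeR). The capitals mark the ETS letters on either strand, overlapping in Snrpe. The stretches lie at chr3:137832480-137832599, minus strand (Snrpb), chr13:47609252-47609371, minus strand (Snrpe) and chr3:150852714-150852833, plus strand (Snrpb2) in GRCr8, each written 5′ to 3′ on the gene's strand.
Snrpb: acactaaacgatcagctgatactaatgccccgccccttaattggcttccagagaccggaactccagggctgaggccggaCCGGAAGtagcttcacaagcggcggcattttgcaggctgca
Snrpe: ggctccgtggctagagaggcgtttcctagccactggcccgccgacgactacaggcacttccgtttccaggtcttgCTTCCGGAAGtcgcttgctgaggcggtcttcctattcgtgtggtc
Snrpb2: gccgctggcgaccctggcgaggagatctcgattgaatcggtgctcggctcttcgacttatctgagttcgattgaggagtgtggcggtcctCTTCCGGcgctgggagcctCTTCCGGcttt

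Hnrnpc, which rose with Yap1 shRNA, and Hnrnpa1, which was called lower, are shown in the same way because both hold CCAAT, in capitals on either strand. They lie at chr15:27282716-27282835, minus strand (Hnrnpc) and chr7:136253998-136254117, plus strand (Hnrnpa1) in GRCr8.
Hnrnpc: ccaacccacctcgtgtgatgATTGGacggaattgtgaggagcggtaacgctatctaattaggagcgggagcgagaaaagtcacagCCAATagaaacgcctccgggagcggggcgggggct
Hnrnpa1: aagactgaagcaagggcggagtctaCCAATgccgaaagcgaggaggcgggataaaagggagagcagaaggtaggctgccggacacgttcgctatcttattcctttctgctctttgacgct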

How the data were processed

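Messenger RNA enriched with oligo(dT) beads was sequenced on a BGISEQ-500, per the labels' protocols. The submitters' processing notes name HISAT2, Bowtie2, RSEM 1.3.1, DESeq2 1.4.5 and the rat build rn6, with no role or order. Expected counts for each gene, without normalization, were deposited, of which 89.8% were whole within 0.005. TPM and FPKM, both scaled by the authors for depth and length, were deposited as well, and FPKM was not used. The authors also deposited log2 fold changes with p-values and q-values for the 3 comparisons, whose coordinates and annotation columns gave positions and KEGG terms. A second deposited table was not used.

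Expected counts were rounded, filterByExpr kept 13708 genes, and edgeR 4.0.16 under R 4.3.3 fitted the 3 groups over all 9 libraries after TMM scaling. Tests were two-sided quasi-likelihood F tests, adjusted by Benjamini-Hochberg over all genes tested and called at 0.05. The SE is the log2 fold change divided by the square root of F. CPM used TMM-scaled library sizes, and TPM served comparisons between genes. With 6103220 to 15368465 reads per library, 131 to 133 members had at least 10 reads in each library.

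The members and lists were chosen with earlier results of these data known. Named members were those with the largest called changes per family (5 CPM or more on average, no overlap of groups), the highest TPM per family, those called in opposite directions, a fixed list of core genes and the 2 genes with the lowest p per related list. Snrpn and Hspa1a, on that list, are not among the members and are not analysed here. Some items are not reported here. Further members were named after their values were seen to describe their complexes. Complexes are textbook lists, in which Aqr and Ddx46 stand in 2 of the lists. As alternatives, scaling was by RLE, upper quartile or library size alone, and the test was that of DESeq2 1.42.0, limma-voom and limma-trend (limma 3.58.1) on log2(TPM + 1) and log2(TPM + 0.1), no filter, at least 5 CPM in 3 libraries, a fit of only the 6 libraries compared, a replicate block, equal depth, a fold minimum of 1.5, each library left out and, added after seeing the data, near-copies summed.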

Additional observations from a re-analysis of the deposited data

How the results depend on the processing

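The 174 log2 fold changes of named genes kept their direction and their side of the threshold in 2727 recalculations without a fold minimum, counting 39 values that changed sign with no call on either side. A call was lost in 63 and gained in 34 with the sign kept. In 14 the sign changed and a call was lost or gained, and none of the 14 was called both in the main calculation and in the alternative. They are, for log2(TPM + 1) and log2(TPM + 0.1): Hnrnpa1 with Yap1 shRNA (0.0339 and 0.034) and with Yap1 WT (0.1412 and 0.1416), Srsf9 with Yap1 shRNA (0.1772 and 0.1818), and with Yap1 WT Ddx5 (0.181 and 0.1815), Snrpe (0.1496 and 0.1498) and Srsf2 (0.1548 and 0.1555). Ddx5 with Yap1 WT also changed sign with library size scaling (0.1331), and Rbmx with Yap1 shRNA after its near-copy was added (0.4122). The cause was not tested. Member counts with a fold minimum of 1.5 were, by construction, smaller: 8 higher and 1 lower for Yap1 WT against GFP, 63 and 6 for Yap1 shRNA against GFP, and 1 and 47 for Yap1 WT against Yap1 shRNA. Lower calls for Yap1 WT against GFP numbered 6 with library size scaling and 4 on TPM with either pseudocount. Those for Yap1 shRNA numbered 23 with upper quartile scaling and 8 on TPM with either pseudocount. Higher calls for Yap1 WT against Yap1 shRNA numbered 18 with upper quartile and 17 with library size scaling. Upper quartile scaling moved the median of all genes to -0.152 for Yap1 shRNA and 0.176 between the Yap1 groups. For Yap1 WT and Yap1 shRNA against GFP, log2(TPM + 1) moved it to 0.136 and 0.156. On log2(TPM + 0.1) it was 0.164 and 0.188. With 1 library left out, 61 to 66 members were higher and 8 to 14 lower for Yap1 WT, 96 to 97 and 11 to 14 for Yap1 shRNA, and 6 to 11 and 82 to 86 between the Yap1 groups. Deviations of libraries with the same replicate number correlated at -0.03 to 0.09, so the numbers were not taken to pair the samples. With the replicate number as a block, 70 members were higher and 13 lower for Yap1 WT, 97 and 13 for Yap1 shRNA, and 10 and 85 between the Yap1 groups. Rbmxl2, with 0 to 3 reads per library, was not tested.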
